A study of Mus musculus with 6 samples.

Results

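The 8 genes described here were chosen by name as macrophage genes, namely Csf1r, C1qa, C1qb, C1qc, Aif1, Tyrobp, Cx3cr1 and Ctss, and all 8 were among the 13024 genes of the count table. RNA-Seq had been done on 6 pools of lenses at E14.5, each of 10 lenses from 5 embryos, from mice of mixed C57BL/6 and FVB strain. Of these, 3 pools were Gata3 CKO (Gata3 f/f, Pax6-Cre/+; genotype Gata3 -/- in the labels), in which floxed exon 4 of Gata3 is deleted by a Cre driven by the Pax6 ocular epithelial enhancer and P0 promoter in lens and corneal precursors of the head ectoderm, a lineage that does not give rise to macrophages. The other 3 were control pools, called wild type in the labels, and described by the study both as Gata3 f/f and as Gata3 f/wt without Cre, so that Cre and Gata3 loss cannot be told apart. No macrophages were sorted or counted.

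Macrophages are phagocytic cells of the haematopoietic lineage that settle in developing tissues, where they take up dying cells and help to remodel vessels. In the embryonic eye they lie in the vitreous and along the hyaloid vessels and the tunica vasculosa lentis, the temporary vessel net that feeds the lens and later regresses. The lens itself is an avascular epithelial tissue inside a capsule, and a dissected lens can carry vessels and macrophages on its surface. Macrophages depend on the receptor Csf1r and its ligands for survival, and microglia, the macrophages of neural tissue, share many of their genes.

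The libraries held 15157230 to 18811104 fragment counts. Values are given as CPM, counts per 1000000 after TMM scaling, and differences as log2 fold changes of CKO against control from edgeR's quasi-likelihood test over 12879 genes with Benjamini-Hochberg adjustment. Gata3 itself had 202, 386 and 156 counts in control pools 1, 2 and 3, but 910, 1064 and 894 counts in CKO pools 1, 2 and 3. A count over the whole gene does not show the deleted exon, so it cannot check the label, and directions are those of the libraries labelled CKO. Dnase2b, the nuclease gene of lens fibre denucleation, named after its values were seen, had 203, 321 and 135 counts in the control pools and 15, 6 and 9 in the CKO pools. Several libraries stood apart in the tissues they held. Control pool 2 had the highest summed level of 20 lens fibre genes (131894 CPM, against 32032 to 64250.5 in the others) and the lowest of 12 retina genes (1244 CPM, against 1819 to 2679). Control pool 1 and CKO pool 2 had 2572 and 4376 CPM of 13 mesenchyme genes, where the other pools had 433 to 953.

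All 8 macrophage genes were detected in every pool at low levels. Together they took 902 to 1597 counts a library, or 59.5 to 97.8 CPM before TMM scaling. The median tested gene had 34.7 to 35.5 CPM. By mean CPM, Csf1r lay at percentile 41.0 of the genes tested, Cx3cr1 at 27.5, and Aif1, the lowest, at 1.79. In bulk tissue fewer macrophages and less RNA per macrophage cannot be told apart.

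Across the pools the genes shared a pattern rather than a clean split by genotype. Of the 8 genes, 7 were highest in control pool 2 and Tyrobp was highest in control pool 1, while 6 were lowest in CKO pool 1 and the other two in control pool 3. The summed level was 91.1, 113 and 64.1 CPM in control pools 1, 2 and 3, and 58.5, 77.7 and 63.6 CPM in CKO pools 1, 2 and 3. Control pool 3 thus lay within the CKO range.

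All 8 were lower in mean in CKO, and their log2 fold changes had a median of -0.41, but none passed at an adjusted p-value of 0.05 and the groups of each of the 8 overlapped. Over all genes tested, 49.4% had a log2 fold change below 0, with a median of 0.00188. Of all genes, 0% passed after adjustment (DESeq2 passed 85 genes), and 8.36% had groups that did not overlap (4.69% with CKO lower). At an unadjusted p-value under 0.05, C1qa alone of the 8 passed, where 3.55% of all genes did and 2.24% did with CKO lower. The 8 genes were read from the same 6 libraries, so they are not 8 separate tests.

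**Figure D1:**
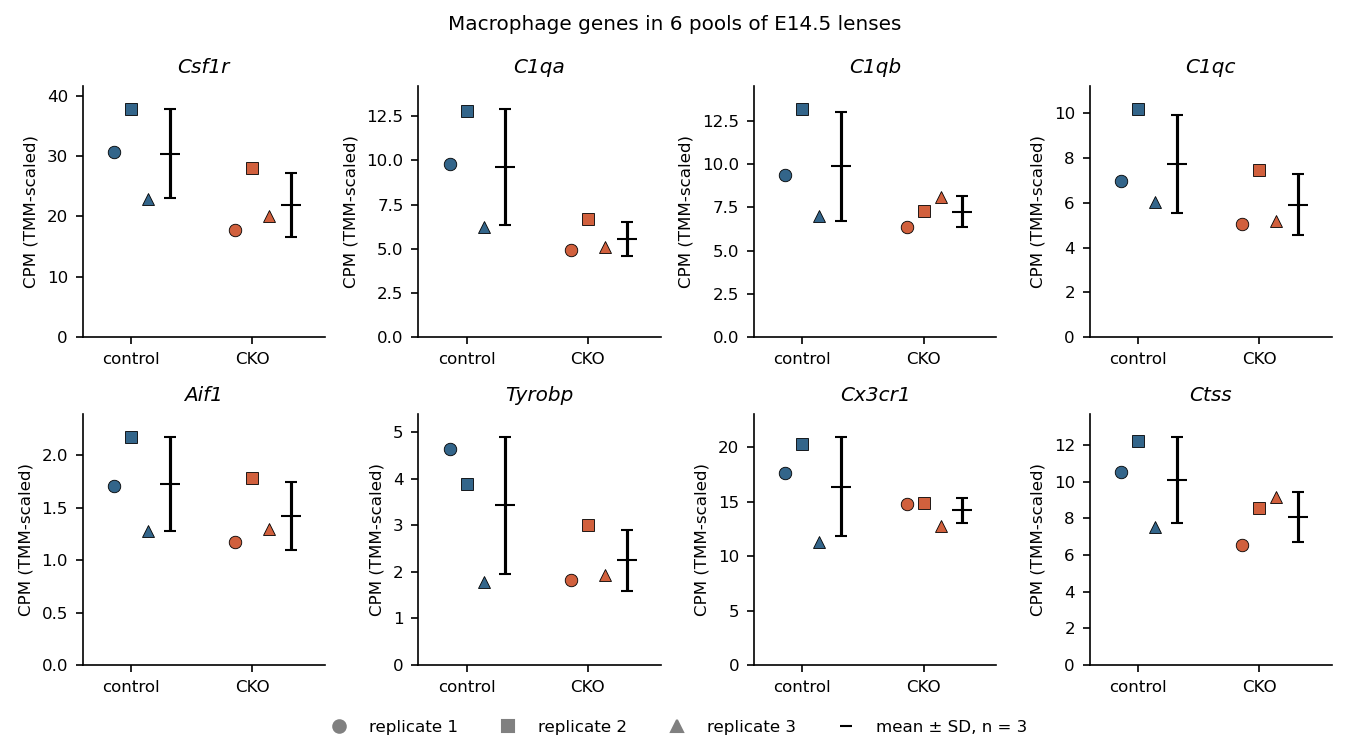
Level of each of the 8 macrophage genes (CPM, vertical axes from 0) in the 3 control and 3 CKO pools, 1 point a pool with the symbol giving the replicate number, beside the mean and SD of each group. Control replicate 2 (blue squares) is the highest point in 7 of the 8 panels, and in every panel the groups overlap.

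Csf1r encodes the receptor tyrosine kinase that macrophages need for survival and growth, and lies on chromosome 18 (61105572–61131139, forward strand, mm10). It was the most counted of the 8, with 30.6, 37.7 and 22.9 CPM in control pools 1, 2 and 3, and 17.8, 28.0 and 20.0 CPM in CKO pools 1, 2 and 3. CKO pool 2 was above control pool 3, and the other CKO pools were below all control pools. Control averaged 30.4 ± 7.40 CPM (SD, n = 3), and CKO averaged 21.9 ± 5.33 CPM (SD, n = 3). The log2 fold change was -0.47, with a standard error of 0.236 and a 95% interval of -1.03 to 0.10 (edgeR, adjusted p = 1.0).

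Neither tested ligand of Csf1r and Cx3cr1 passed the test. Csf1, which encodes a ligand of Csf1r, had 15.6, 14.7 and 14.9 CPM in the control pools and 12.3, 15.8 and 13.9 CPM in the CKO pools, a log2 fold change of -0.10 (95% interval -0.42 to 0.21). Cx3cl1, which encodes fractalkine, had 33.1 ± 11.7 and 27.8 ± 1.93 CPM, a log2 fold change of -0.25 that became 0.08 without control pool 2. Il34, the other Csf1r ligand, was not analysed here.

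C1qa, C1qb and C1qc encode the chains of C1q, the recognition part of the first complement component, in which the chains assemble in equal numbers. In most tissues macrophages are its main source. The genes lie side by side in the order C1qb, C1qc, C1qa within 18719 bases of chromosome 4 (136880126–136898844, reverse strand), with no other RefSeq gene between them.

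C1qa had 9.82, 12.8 and 6.26 CPM in control pools 1, 2 and 3, and 4.93, 6.66 and 5.10 CPM in CKO pools 1, 2 and 3. Here CKO pool 2 was just above control pool 3, and the rest did not overlap. Its log2 fold change was -0.79, the largest in size of the 8, with a standard error of 0.292 and a 95% interval of -1.48 to -0.09 (edgeR, unadjusted p = 0.0315, adjusted p = 1.0). The unadjusted p-value was 0.0836 without control pool 1, 0.094 without control pool 2, 0.0933 without CKO pool 1, 0.0932 without CKO pool 3 and 0.0585 with limma voom. It was under 0.05 without control pool 3 (0.00328) or CKO pool 2 (0.0324).

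C1qb had 9.38, 13.2 and 6.98 CPM in the control pools and 6.35, 7.32 and 8.12 CPM in the CKO pools. Here CKO pools 2 and 3 were above control pool 3. The log2 fold change was -0.44 (95% interval -1.05 to 0.18), and -0.16 without control pool 2. C1qc had 6.97, 10.2 and 6.03 CPM in the control pools and 5.06, 7.48 and 5.20 CPM in the CKO pools, a log2 fold change of -0.38 (95% interval -1.03 to 0.26), and -0.12 without control pool 2. CKO pool 2 was above control pools 1 and 3 for C1qc, so the chains were not ordered alike across the pools.

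The balance of the chains was compared within libraries, where scaling has no part. C1qa gave 37.5%, 35.3% and 32.5% of the C1q counts in control pools 1, 2 and 3 (413, 515 and 345 counts), and 30.2%, 31.0% and 27.7% in CKO pools 1, 2 and 3 (252, 422 and 354 counts). The groups did not overlap, in a comparison chosen after the values had been seen, but neighbouring pools were not separable by counting error, since the 95% Wilson intervals were 27.7% to 37.6% in control pool 3 and 26.8% to 35.6% in CKO pool 2. The C1qb share was 35.8% to 36.5% in the control pools and 34.1% to 44.1% in the CKO pools, and that of C1qc was 26.6% to 31.3% and 28.2% to 34.8%. These intervals cover counting error only.

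Sequence upstream of C1qb and C1qc is shown because these genes sit side by side, with that of Ctss, a member on another chromosome, for comparison. RefSeq promoters (GRCm38.p6, the build of mm10) were at hand for 5 of the 8 genes: C1qb, C1qc, Ctss, Cx3cr1 and Aif1. They were searched on both strands for GAGGAA, the core letters bound by the myeloid factor PU.1, which Spi1 encodes, and for the longer GAGGAAGT that holds it. The 250 bases before the start are printed on the gene's strand with GAGGAA, or its reverse complement, in capitals. C1qb lies at chr4:136886201-136886450 and C1qc at chr4:136892915-136893164, both on the reverse strand, and Ctss at chr3:95526536-95526785 on the forward strand.
C1qb: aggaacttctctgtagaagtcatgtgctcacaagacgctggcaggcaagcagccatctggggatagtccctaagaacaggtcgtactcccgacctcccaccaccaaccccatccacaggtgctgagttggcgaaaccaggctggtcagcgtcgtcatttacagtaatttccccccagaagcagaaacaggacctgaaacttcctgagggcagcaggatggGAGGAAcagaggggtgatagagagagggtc
C1qc: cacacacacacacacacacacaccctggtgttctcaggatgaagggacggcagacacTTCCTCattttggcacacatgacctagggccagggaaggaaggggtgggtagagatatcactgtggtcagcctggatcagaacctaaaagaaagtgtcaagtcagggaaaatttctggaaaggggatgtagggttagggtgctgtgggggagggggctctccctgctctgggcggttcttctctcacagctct
Ctss: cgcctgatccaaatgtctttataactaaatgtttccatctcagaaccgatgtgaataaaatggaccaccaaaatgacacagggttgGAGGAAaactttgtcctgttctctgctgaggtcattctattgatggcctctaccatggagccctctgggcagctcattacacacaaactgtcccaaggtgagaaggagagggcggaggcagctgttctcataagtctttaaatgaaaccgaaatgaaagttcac

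GAGGAA began 30 bases before the start of C1qb and 164 before that of Ctss, and its reverse complement lay at 193 bases before the start of C1qc. With Aif1, where the reverse complement lay 7 bases before the start, 4 of the 5 promoters held it in the 300 bases around the start (250 before, 50 after), as did 28.3% of all 32851 promoters. GAGGAAGT was in 2 of the 5 and in 3.20% of all, in C1qc at the printed match and in Ctss at a separate match that begins at the last 2 printed bases and runs across the start. Of the letters bound by GATA factors, AGATAG was in Cx3cr1 and in 8.95% of all promoters, and TGATAG was in C1qb and Aif1 and in 7.29% of all. AGATAA (11.2% of all) was in 0 of the 5, as was TGATAA (9.05% of all). At least 1 of these was in 3 of the 5 and in 29.8% of all. Such matches are letters only, not binding. Spi1 had 1.71, 2.61 and 1.12 CPM in the control pools and 1.43, 2.29 and 2.03 CPM in the CKO pools, with overlapping groups.

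Tyrobp encodes DAP12, a small adaptor that carries the signals of Trem2 and other myeloid receptors, and lies on chromosome 7 (30413782–30417582, forward strand). It had 4.63, 3.88 and 1.79 CPM in control pools 1, 2 and 3, and 1.82, 3.00 and 1.93 CPM in CKO pools 1, 2 and 3. Control pool 3 was the lowest of the 6, so the control pools spanned the whole CKO range. The log2 fold change was -0.60 (95% interval -1.58 to 0.38), which ranged from -0.91 to -0.30 when single pools were dropped.

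Of 9 genes for partners of Tyrobp, 4 were tested and all 4 were lower in mean, with a median log2 fold change of -0.46 and 0 with an unadjusted p-value under 0.05. Trem2 had 2.03, 3.59 and 1.45 CPM in the control pools and 1.30, 1.27 and 1.67 CPM in the CKO pools, a log2 fold change of -0.73 (95% interval -1.67 to 0.22). Fcer1g, the sister adaptor of Fc receptors, had a log2 fold change of -0.43 that became 0.31 without control pool 2. For Syk, the kinase below both adaptors, the groups did not overlap, with 5.75 to 7.22 CPM in control and 4.93 to 5.67 in CKO, and the log2 fold change was -0.27 (95% interval -0.71 to 0.16). The other 5 genes were not analysed here.

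Cx3cr1 encodes the fractalkine receptor, which is highest in microglia and in some tissue macrophages, and lies on chromosome 9 (120048683–120068296, reverse strand). It had 17.6, 20.3 and 11.3 CPM in control pools 1, 2 and 3, and 14.8, 14.9 and 12.8 CPM in CKO pools 1, 2 and 3. All 3 CKO pools were between the control pools, and the log2 fold change, -0.21 (95% interval -0.73 to 0.32), was the smallest in size of the 8. It was -0.02 without control pool 2.

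Aif1 encodes IBA1, the calcium-binding protein by which macrophages and microglia are stained, and lies on chromosome 17 (35170986–35176083, reverse strand). It was counted only 27, 31 and 23 times in control pools 1, 2 and 3, and 18, 35 and 25 times in CKO pools 1, 2 and 3. The exact 95% Poisson intervals of the lowest and highest counts, 10.7 to 28.4 and 24.4 to 48.7, overlapped, so counting error alone did not separate these pools. Its log2 fold change was -0.27 (95% interval -1.07 to 0.53).

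Ctss encodes cathepsin S, a lysosomal protease of antigen-presenting cells that stays active outside the lysosome, and lies on chromosome 3 (95526786–95556405, forward strand). It had 10.5, 12.2 and 7.54 CPM in the control pools and 6.55, 8.54 and 9.16 CPM in the CKO pools. Only CKO pool 1 was below all control pools, and the log2 fold change was -0.31 (95% interval -0.86 to 0.24). Of 14 tested genes for other cathepsins, legumain and cystatins, which many cell types make, 10 were lower and 4 higher in mean, with a median log2 fold change of -0.07 and 0 with an unadjusted p-value under 0.05.

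Compared per length, the order of the genes changed. Per kilobase of exon, control means were 9.26 ± 3.16 CPM for C1qa, 9.07 ± 2.91 for C1qb, 7.86 ± 1.91 for Csf1r, 7.41 ± 1.73 for Ctss, 6.43 ± 1.83 for C1qc, 6.08 ± 2.61 for Tyrobp, 4.37 ± 1.22 for Cx3cr1 and 1.97 ± 0.514 for Aif1 (SD, n = 3 each). Each gene differed from the next in this order by less than the larger of their SDs, except for the step from Cx3cr1 to Aif1, which was present in 6 of 6 libraries. Ctss was also above C1qc in 6 of 6. In the CKO pools C1qb was highest, at 6.68 ± 0.812 CPM per kilobase (SD, n = 3), and C1qa had 5.35 ± 0.919 (SD, n = 3). C1qa was above C1qb in 2 of 6 libraries.

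How the 8 fold changes rest on single pools is shown by leaving each out. With control pool 2 left out the median log2 fold change was -0.15 and 0 of the 8 had an unadjusted p-value under 0.05. With control pool 3 left out it was -0.59, and 5 of the 8 (Csf1r, C1qa, C1qb, Tyrobp and Cx3cr1) had an unadjusted p-value under 0.05, where 9.59% of all genes did. With CKO pool 2 left out, Csf1r and C1qa had one, where 3.00% of all genes did. The lowest adjusted p-value of any of the 8 over the 16 settings tried was 0.33, for C1qa without control pool 3. An exact two-sided permutation test over the pools gave p = 0.2 for Csf1r and C1qa and 0.3 to 0.5 for the other genes, where 3 against 3 cannot go below 0.1.

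**Figure D2:**
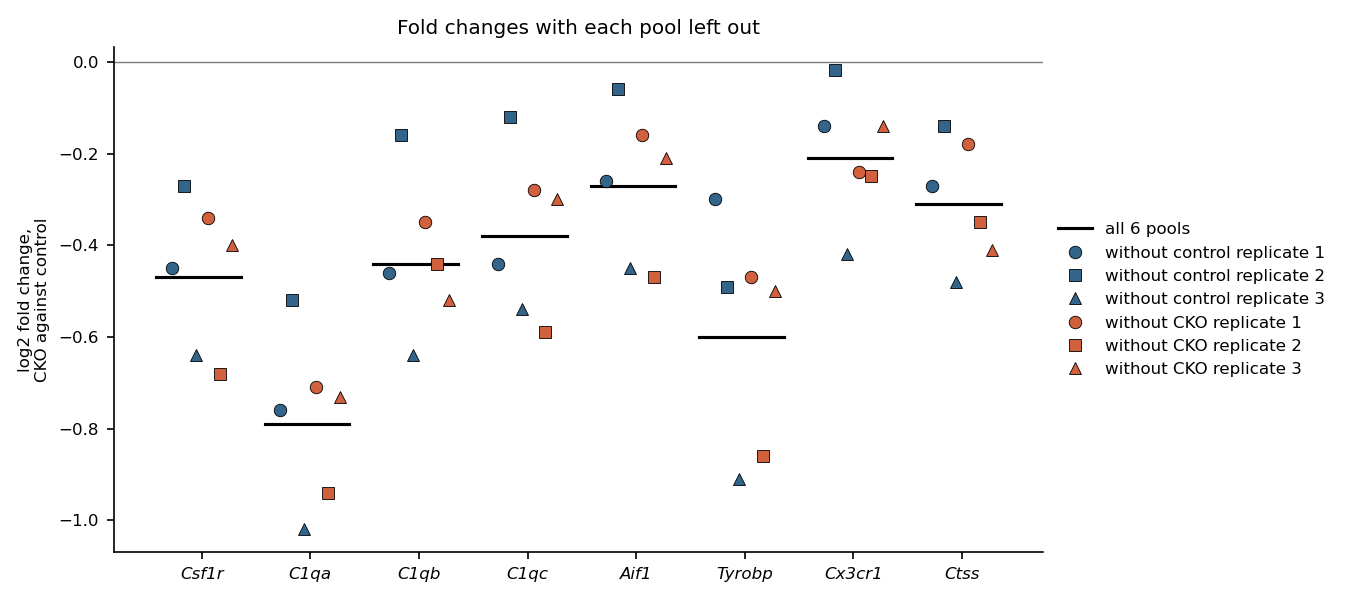
Log2 fold change of CKO against control (vertical axis) for each of the 8 genes, from all 6 pools (black line) and with each pool left out (points, coloured by the group of the pool left out). Every point lies below 0, and for 7 of the 8 genes, Tyrobp excepted, the point nearest to 0 is that without control replicate 2 (blue squares).

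The wider myeloid genes were mostly lower in mean too, and 0 had an adjusted p-value under 0.05. Of 34 other macrophage and myeloid genes 18 were tested, and 16 were lower and 2 (Csf2ra and Spi1) higher in mean, with a median log2 fold change of -0.35. An unadjusted p-value under 0.05 was found for 2 of the lower and 1 of the higher. Over all genes, 3.55% had one (2.24% with CKO lower). Groups did not overlap for 4 of the lower (Lyz2, Ly86, Cd53 and Ncf1) and 1 of the higher (Csf2ra). Over all genes, 8.36% did not overlap (4.69% with CKO lower). Lyz2, which encodes lysozyme, had 6.93 to 9.72 CPM in the control pools and 4.37 to 5.71 in the CKO pools, without overlap, a log2 fold change of -0.70 (95% interval -1.20 to -0.21; edgeR, adjusted p = 0.979). Ly86, which encodes a partner of the toll-like receptor relative RP105, also did not overlap, with 2.23 to 3.48 and 1.43 to 1.93 CPM and a log2 fold change of -0.77 (95% interval -1.45 to -0.09).

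Adgre1, which encodes the macrophage antigen F4/80, had 4.47 to 10.2 CPM in control and 4.41 to 5.70 in CKO, a log2 fold change of -0.55 (95% interval -1.30 to 0.20). Csf2ra, which encodes the alpha chain of the GM-CSF receptor, went the other way, with 20.2 to 20.7 CPM in the control pools and 23.1 to 24.7 in the CKO pools and a log2 fold change of 0.22 (95% interval 0.01 to 0.43, adjusted p = 1.0). Cd52 had only 6 to 10 counts a library and was not tested, and the other 15 myeloid genes, Itgam, Ptprc and Cd14 among them, were not analysed here.

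Genes of macrophages on vessels and tissue borders had the lowest median of the macrophage lists. All 8 tested of 10 were lower in mean, with a median log2 fold change of -0.71, which was -0.40 without control pool 2 and -1.0 without control pool 3. Lyve1, a hyaluronan receptor shared with lymphatic vessels, had 13.4, 18.9 and 7.26 CPM in control pools 1, 2 and 3, and 7.20, 6.92 and 5.78 CPM in CKO pools 1, 2 and 3. The groups did not overlap, though control pool 3 and CKO pool 1 were nearly equal, and the log2 fold change was -0.99 (95% interval -1.80 to -0.18; edgeR, adjusted p = 1.0).

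F13a1, which encodes the A chain of coagulation factor XIII, had 10.6 to 25.9 CPM in control and 7.54 to 12 in CKO, a log2 fold change of -0.97 (95% interval -1.81 to -0.14; edgeR, adjusted p = 1.0). Mrc1, the mannose receptor CD206, had 20.2 to 45.5 and 16.3 to 24.7 CPM, a log2 fold change of -0.73 (95% interval -1.48 to 0.03). Of this list Maf is also a crystallin regulator of lens fibres, Stab1 is also made by endothelium and Pf4 by platelets, so these are not particular to macrophages.

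Of 6 tested microglial genes 4 (P2ry12, Fcrls, Gpr34 and Olfml3) were lower and 2 (Tmem119 and Sall1) higher in mean, with a median log2 fold change of -0.20 and 0 with an unadjusted p-value under 0.05. P2ry12, a purinergic receptor that marks microglia, had 3.80 to 4.65 CPM in control and 3.59 to 3.66 in CKO, without overlap, a log2 fold change of -0.19 (95% interval -0.67 to 0.29). It was the only gene of the 6 whose groups did not overlap, where 8.36% of all genes did not. Tmem119 had 8.43, 2.89 and 2.01 CPM in control pools 1, 2 and 3, and 1.75, 13.7 and 4.16 CPM in CKO pools 1, 2 and 3, highest in the pools rich in mesenchyme genes. Its log2 fold change of 0.57 ranged from -0.57 to 1.45 when single pools were dropped. Sall1, a transcription factor gene that other embryonic tissues also use, had 48.8 to 120.4 CPM in control and 71.0 to 96.6 in CKO, above Cx3cr1 in every pool. Olfml3, 1 of the 4 lower genes, had 16.3 to 47.3 CPM in control and 14.9 to 25.6 in CKO. It too was above Cx3cr1 in every pool.

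**Figure D3:**
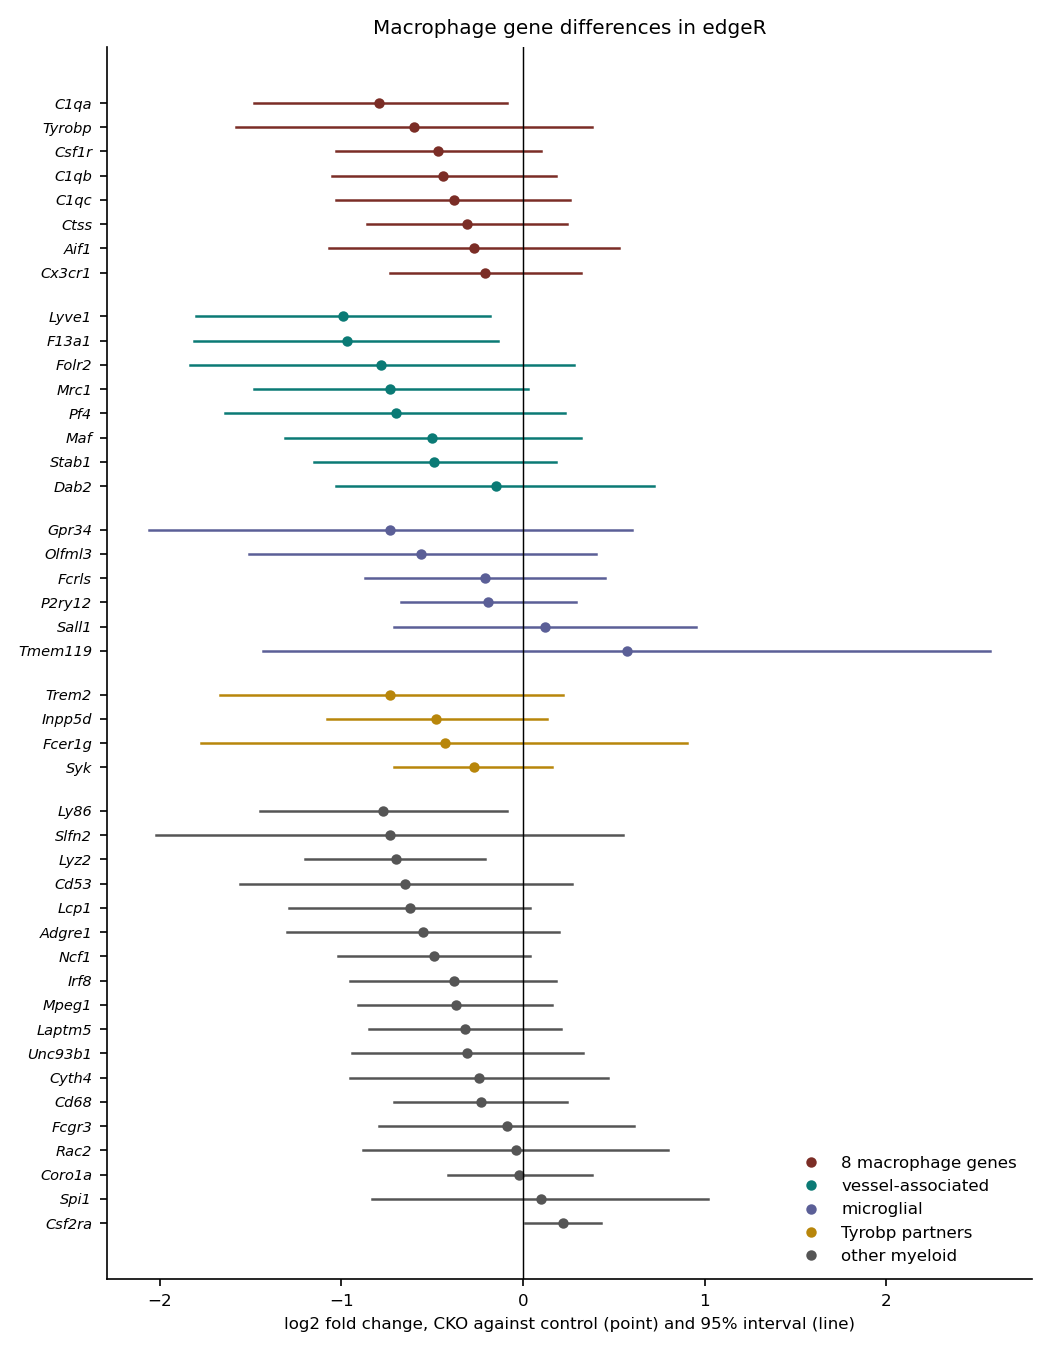
Log2 fold change of CKO against control (points) with 95% interval (lines) from edgeR for the tested genes of 5 lists, the 8 macrophage genes at the top. Most points lie left of 0, and most lines cross it. Among the 8 only the line of C1qa does not.

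The vessel-associated genes were also set against Cx3cr1 in the same library, a comparison made after the values had been seen. For 3 of the 8 genes (Lyve1, Mrc1 and F13a1) the share was lower in CKO without overlap, and for the other 5 (Pf4, Stab1, Folr2, Maf and Dab2) the groups overlapped. Shares against Cx3cr1 were not computed over all genes, so this count has no baseline. Cx3cr1 also changed least of the 8 macrophage genes chosen by name (log2 fold change -0.21), so a gene with a larger decrease tends to a lower share. Of the vessel-associated genes, Dab2 changed less (-0.15). Lyve1 took 43.4%, 48.2% and 39.0% of the counts of Lyve1 and Cx3cr1 in control pools 1, 2 and 3 (95% Wilson intervals from 34.0% to 52.4%), and 32.7%, 31.7% and 31.1% in CKO pools 1, 2 and 3 (from 26.5% to 37.9%). Mrc1 took 63.8%, 69.2% and 64.0% of the counts of Mrc1 and Cx3cr1 in the control pools and 52.4%, 62.3% and 57.5% in the CKO pools. For Lyve1 the interval of control pool 3 overlapped those of CKO pools 1, 2 and 3. For Mrc1 the intervals of control pools 1 and 3 each overlapped those of CKO pools 2 and 3. F13a1 took 48.2% to 56.0% in the control pools and 36.8% to 44.5% in the CKO pools, while Dab2 took 62.5% to 67.7% and 56.6% to 73.5%. The Cx3cr1 share of Cx3cr1 and Csf1r counts overlapped, at 33.1% to 36.4% in control and 34.8% to 45.3% in CKO, the highest being that of CKO pool 1.

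**Figure D4:**
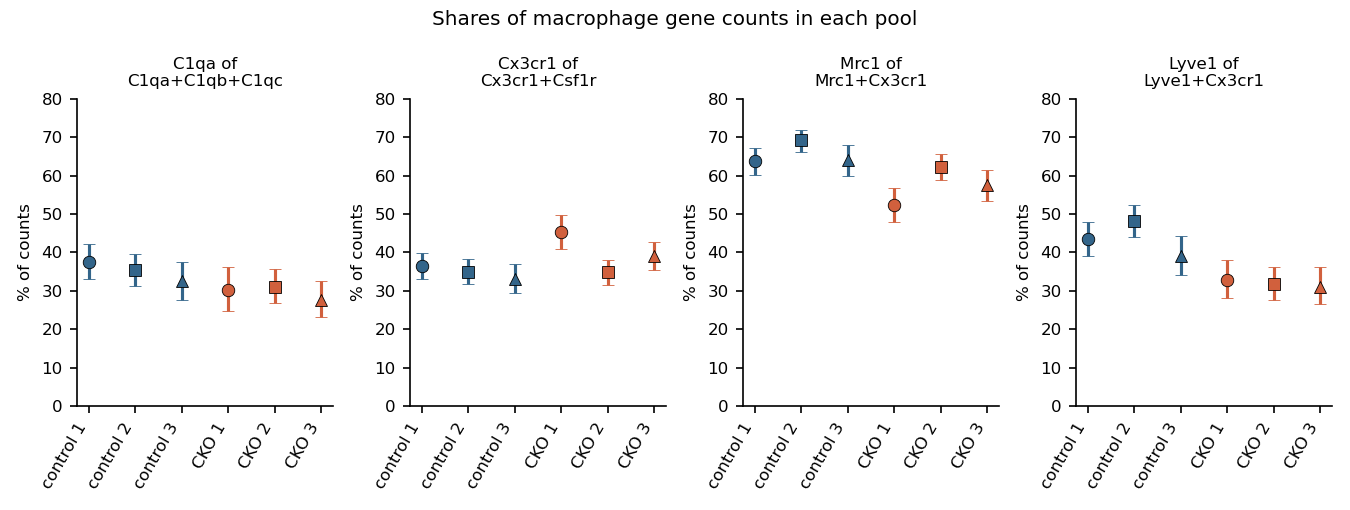
Share of counts (%, vertical axis) taken by the first-named gene among the genes named above each panel, in each of the 6 pools, with 95% Wilson intervals for counting error. The Lyve1 share is 39.0% to 48.2% in the control pools and 31.1% to 32.7% in the CKO pools, while the Cx3cr1 share overlaps between the groups.

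Markers of some other tissues, such as endothelium, moved with the macrophage genes over the pools, while those of retina ran the other way. The part of these tissues in the values was not tested. Of 14 endothelial genes all were tested, 13 were lower in mean and 2 (Esam and Flt1) had an unadjusted p-value under 0.05. Over all genes, 2.24% had one with CKO lower. The median log2 fold change of the 14 was -0.49. Their summed level was 460.2, 489.7 and 351 CPM in control pools 1, 2 and 3, and 309, 411 and 313 CPM in CKO pools 1, 2 and 3, which puts the 6 pools in the same order as the summed macrophage genes. Within a library the 8 macrophage genes took 15.4% to 18.7% of the counts of both lists in the control pools and 15.9% to 16.9% in the CKO pools, with overlapping groups.

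Red cell genes were also lower in mean, with 399 to 1445 CPM in control and 343 to 472 in CKO over 9 genes, of which Hba-a2, Hbb-bt and Hbb-bs were listed at 0 in all 6 libraries. As the table held only genes with a mean FPKM above 1, these 0 counts do not show absence, and the sum misses those globins. Genes of mural cells, the pericytes and smooth muscle of vessels, had 242 to 339 CPM in control and 244 to 329 in CKO, and platelet genes had 12.3 to 16.9 and 11.2 to 13 CPM. Mesenchyme (433 to 2572 and 553 to 4376 CPM), pigment cell (69.8 to 341 and 72.6 to 341 CPM), retina (1244 to 2679 and 1819 to 2517 CPM) and lens epithelium genes (1608 to 2875 and 1997 to 2168 CPM) overlapped. Of the red cell, mural, platelet, mesenchyme, pigment cell, retina and lens epithelium genes 0 had an unadjusted p-value under 0.05, with median log2 fold changes of -0.61, -0.30, -0.56, 0.57, 0.06, 0.16 and -0.31. The lens fibre genes differed most, with 20 of 20 lower in mean and a median log2 fold change of -1.38. Of these, 15 had an unadjusted p-value under 0.05 and 14 were without overlap. Over all genes, 2.24% had such a p-value with CKO lower, and 4.69% were lower without overlap. The fibre list holds genes that the study had reported as lower in these libraries, Dnase2b, Bfsp2 and Crygb among them. Its place was thus partly set in advance. With control pool 1 and CKO pool 2, those rich in mesenchyme, both left out, the median log2 fold change of the 8 macrophage genes was -0.52, with 0 of 8 at an unadjusted p-value under 0.05, where 1.35% of all genes were.

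**Figure D5:**
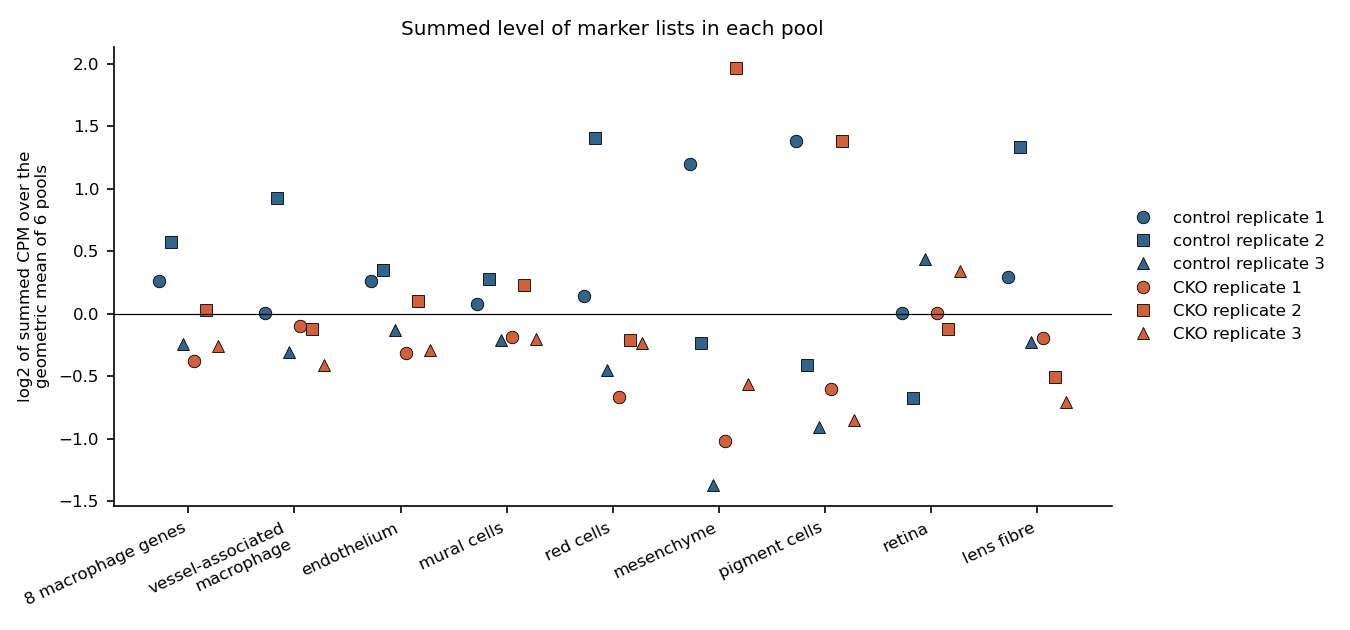
Summed CPM of each marker list in each pool, as log2 of its ratio to the geometric mean of the 6 pools (vertical axis). Control replicate 2 (blue squares) is highest for the 8 macrophage genes, endothelium, red cells and lens fibre genes and lowest for retina genes, while mesenchyme and pigment cell genes are highest in control replicate 1 and CKO replicate 2.

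The genes most like the 8 over the pools were ranked by Pearson correlation of log2 CPM with the mean of the 8, over 6 libraries and 12249 genes with a mean count of at least 50. These are descriptions over few libraries that share their tissue make-up. Outside the lists, the 10 highest were Itga9 (r = 0.999), Stra6, Cgrrf1, Apoe (r = 0.989), Brcc3, Serpinb6b, Adora2a, Gimap6, Vsir and 1500011K16Rik (r = 0.982). Apoe, an apolipoprotein gene of macrophages and many other cells, had 153, 177 and 111 CPM in control pools 1, 2 and 3, and 105, 143 and 112 CPM in CKO pools 1, 2 and 3. Within the lists, Mrc1 ranked at 5 (r = 0.987) and Adgre1 at 7 (r = 0.986). The median r was 0.95 for 3 platelet genes, 0.93 for 14 endothelial genes and 0.91 for 7 of the vessel-associated macrophage genes. It was 0.82 for 14 other myeloid genes, 0.81 for 20 lens fibre genes and 0.79 for 6 red cell genes. For 8 lens epithelium genes it was 0.74, and for 7 mural genes 0.73. It was -0.12 for 2 genes of other leukocytes, -0.85 for 12 retina genes and 0.03 for all genes.

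Genes that act with macrophages had medians near 0. Of 21 further complement genes 9 were tested, with a median log2 fold change of -0.02 and 0 at an unadjusted p-value under 0.05, and of 13 genes for uptake of dying cells 10 were tested, with a median of -0.03 and 0 at that limit. In the list for regression of the hyaloid vessels, which holds Wnt7b, the macrophage signal in that process, 9 of 9 were tested, with a median of -0.04. Of these 9, 1 lower (Angpt2) and 1 higher (Angpt1) had an unadjusted p-value under 0.05 in edgeR, where 3.55% of all genes did. The same genes were the only ones of the 9 without overlap, where 8.36% of all genes were (4.69% with CKO lower). Angpt2, the angiopoietin that loosens vessels, had 5.36 to 7.61 CPM in control and 2.92 to 3.97 in CKO, a log2 fold change of -0.79 (95% interval -1.36 to -0.23, edgeR, adjusted p = 0.989). Angpt1, which stabilizes vessels, had 4.69 to 11.4 CPM in control and 16.4 to 26 in CKO, a log2 fold change of 1.39 (95% interval 0.56 to 2.22, adjusted p = 0.755, and 0.0141 from DESeq2's Wald test). Wnt7b had 112 to 295 CPM in control and 161 to 188 in CKO, above the summed 8 macrophage genes in every pool. Calr of the complement list and Rac1 of the uptake list were higher still. The medians of these lists are thus not particular to macrophages, and which cells gave this RNA was not tested.

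Genes of other leukocytes had a summed level of 37.1 to 56.8 CPM in control and 36.1 to 41.3 in CKO, most of it Kit (21.5 to 43.2 and 29.9 to 31.9 CPM), a receptor of mast cells that pigment cells and other cells also make. Of 19 genes for neutrophils, mast cells, lymphocytes and dendritic cells 6 were tested and all 6 were lower in mean, with a median log2 fold change of -0.43. S100a9, a calcium-binding protein gene of neutrophils and monocytes, was counted 26, 53 and 71 times in control pools 1, 2 and 3, and 22, 8 and 5 times in CKO pools 1, 2 and 3, a log2 fold change of -2.20 (95% interval -3.78 to -0.61; edgeR, adjusted p = 0.989). S100a8, its partner, was counted 35, 28 and 40 times and 25, 21 and 6 times. Both, and no other of the 6, were without overlap, where 8.36% of all genes were (4.69% with CKO lower). Only S100a9 of the 6 had an unadjusted p-value under 0.05 in edgeR, where 3.55% of all genes did (2.24% with CKO lower). The order of S100a8 and S100a9 over the control pools was unlike that of the macrophage genes, with S100a9 highest in control pool 3.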

How the data were processed

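RNA was measured in 6 pools of E14.5 lenses, 3 for Gata3 CKO and 3 for control. The authors aligned paired-end reads of poly(A)-selected, strand-specific libraries to mm10 with TopHat2 2.0.13, counted fragments per RefSeq gene with HTSeq 0.6.1, and deposited raw counts for genes with a mean FPKM above 1 (Cuffdiff 2.2.1) in at least 1 group. Whether counting used strand, and how overlaps were treated, is not given in the sources used here; the RefSeq genes overlapping a member had no row of their own in the table. Titles number the CKO samples 1 to 3 and descriptions 2 to 4, and the title numbers are used. The study calls the pools biological replicates.

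Genes with 10 counts or more in 3 or more libraries were tested with edgeR 4.0.16 under R 4.3.3 (TMM scaling, glmQLFit with robust estimation, glmQLFTest), with Benjamini-Hochberg adjustment across all genes at 0.05. Single-gene exact permutation tests used log2 CPM with an offset of 0.5, and likeness used a prior count of 1. Exon lengths were those of GENCODE M21 transcripts matched to RefSeq, and positions and promoters came from RefSeq (GRCm38.p6). The test was tried on simulated data. The alternatives were DESeq2 1.42.0, limma voom (3.58.1), other scaling (RLE, upper quartile, totals only, crystallins left out of the library size), other filters, the replicate number as a block, each pool left out, and, chosen after seeing the data, control pool 1 and CKO pool 2 both left out. Named genes are the 8 members, genes of 20 lists, Gata3 and the 10 most alike genes. From the microglial list 1 gene was left out and is not reported here. The within-library shares were chosen after seeing the data. The members and lists were chosen with earlier results of these data known. With 3 pools a group, the spread between pools sets the precision, and for Aif1 and Tyrobp the counting error too. Intervals on counts and shares (95%) cover counting error only. No library pair agreed within sampling noise (chi-square per gene 15.4 to 160.0).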

Additional observations from a re-analysis of the deposited data

How the results depend on the processing

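All 8 macrophage genes kept a log2 fold change below 0 in all 127 combinations of gene and setting that gave a value (Aif1 was not tested with a minimum of 50 counts), and none had an adjusted p-value under 0.05 in any of the 16 settings. Their median of -0.41 was -0.28 with library totals only, where the median of all genes moved to 0.103, and -0.59 to -0.15 with each library left out. The number of the 8 with an unadjusted p-value under 0.05 was 1; it was 0 with limma voom, 2 with the replicate block, 0 with control pool 1 and CKO pool 2 both left out, and 0 to 5 with each library left out. Over all genes, the number with an adjusted p-value under 0.05 was 0 in edgeR (457 at an unadjusted p-value under 0.05); it was 85 with DESeq2, 1 with library totals only and 0 to 1 with each library left out. The unadjusted number was 173 with control pool 1 and CKO pool 2 both left out and 271 to 1234 with each library left out, the latter without control pool 3. Of 30 named genes, the sign of Fcer1g (0.31, range -0.71 to 0.31 with each library left out) and Cx3cl1 (0.08, range -0.43 to 0.08) turned without control pool 2, and Angpt1 passed an adjusted p-value of 0.05 with DESeq2. Equal replicate numbers did not pair the samples (correlations of -0.487, 0.0899 and 0.442 between same-numbered pools), and with the replicate block Csf1r and C1qa had an unadjusted p-value under 0.05, as did 516 of all genes (4.01%). The cause of these shifts was not tested. Counts of 18 to 35 for Aif1 limit what can be seen for that gene.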
